A study of Sus scrofa with 6 samples.

Results

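Porcine articular chondrocytes, the cells that make and maintain the cartilage of joint surfaces, were compared between day 20 and day 10 of culture. The comparison rests on 2 of the 6 expression arrays of the study, 1 array for each day, and covers 5601 of the 6765 genes that the arrays name. Genes were included where their signal lay above a floor of 36.1, the 40th percentile of all signals outside the control probe sets, on at least 2 of the 6 arrays. Signals under that floor were raised to it, and where several probe sets stood for a gene, the brightest of them, by mean log2 signal on all 6 arrays, was used.

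The study measured native articular cartilage, native growth plate cartilage, and cultures of the chondrocytes isolated from each, at day 10 and day 20 of what the labels call differentiation. All cultured cells had been freed from the matrix with collagenase and grown in DMEM/Ham's F12 medium containing FBS (fetal bovine serum) and antibiotics and no other supplement, with oxygen held at 5%, carbon dioxide at 5% and a temperature of 37 °C. Every array started from 100 ng of total RNA, amplified by a Two-Cycle protocol and labelled with biotin. The labels give no age, breed or number of pigs, and do not say whether cells were pooled or whether the day 10 and day 20 cells came from the same animals. No condition was repeated, so none of the differences below has a replicate check, and no p-value is given.

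Articular chondrocytes lie singly in a matrix of type II collagen and aggrecan and rarely divide in the mature joint. Released from that matrix and spread on plastic, chondrocytes are known to enter the cell cycle and to take on features of fibroblasts, such as type I and type III collagen and contractile filaments, and dense or long-term culture can let part of the cartilage programme return. Growth plate chondrocytes instead pass through proliferation and hypertrophy and then mineralise their matrix, under the control of parathyroid hormone-related protein and Indian hedgehog.

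The cultured cells carried cartilage genes at high signals on both days. ACAN, the core protein of the main cartilage proteoglycan, had a signal of 15883 in native articular cartilage, 10781 at day 10 and 10267 at day 20. HAPLN1, the link protein that fixes aggrecan to hyaluronan, had signals of 16339, 12888 and 16970 in the same order, and ratios of 0.40 and 0.99, day 20 over day 10 on the log2 scale, on its 2 probe sets. SOX9, the transcription factor that directs the chondrocyte programme, had a signal of 982 in native cartilage against 81.0 and 76.8 in culture, which was low on both days. Of the chondrocyte markers chosen, COL9A1, COL9A2, MATN1, MATN3, SNORC and CNMD were not named on the arrays.

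The marker genes of other cell types were mostly low. Of 8 macrophage and myeloid markers none lay above the floor on either day, and their summed signal was 119.8 at day 10 and 109.8 at day 20. Of 8 lymphocyte markers 0 and then 1 did, with sums of 132 and 77.0. Of 9 endothelial markers 3 and then 4 did, with sums of 396 and 600.1, while CDH5, KDR, TEK, TIE1 and VWF, defining genes of vessel lining cells, stayed under the floor. PECAM1, another of them, was at 118 and 65.6, ESAM at 82.9 and 127, CLDN5 at 26.9 and 99.5 and EGFL7 at 119 and 259, the last 2 at least 2-fold higher at day 20. Pericyte and smooth muscle markers were the exception, with 5 of 6 above the floor on each day and sums of 2266 and 4079. The 5 were not the same on both days. RGS5 lay above the floor at day 10 alone and MCAM at day 20 alone, both named after their values were seen. The adipocyte markers had sums of 179 and 293, and the osteoclast markers 798 and 1239, of which CKB, a creatine kinase that cartilage also expresses, made 724 and 1172. Erythroid markers summed to 641 and 377, nearly all of it HBB, a globin gene, and skeletal muscle and epithelial markers to 626 and 604 and to 213 and 210.2. In such bulk RNA, fewer cells of a type and less RNA per cell cannot be told apart.

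The deposited signals were alike in overall level. Their trimmed mean, taken without the extreme signals, was 396.2 at day 10 and 395.8 at day 20. They appear to have been scaled to a common level before deposit, so this likeness cannot show that the RNA was alike. Median signals were 68.7 at day 10 and 69.4 at day 20, and 60.3% and 60% of probe sets lay above the floor. The 3′ to 5′ signal ratio of the actin control, which goes up as RNA is degraded or cDNA is cut short, was 4.58 at day 10 and 8.75 at day 20, against 3.27 to 5.55 on the other 4 arrays. The same ratio went from 1.44 to 1.15 for GAPDH and from 1.45 to 1.51 for EF1a, and the part of RNA length in the results was not tested. The 27 bacterial and phage control probe sets for hybridisation had a median log2 ratio, day 20 over day 10, of 0.22, ranging from -0.15 to 0.50.

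At day 20, 324 genes had at least a 2-fold higher signal than at day 10, 5.78% of those compared, and 312 had at least a 2-fold lower one, 5.57%. At least 4-fold higher were 49 genes (0.875%), of which 12 had a day 10 signal under the floor, so that their folds are lower bounds. At least 4-fold lower were 34 genes (0.607%), 1 of them with a day 20 signal under the floor. The log2 ratios had a median of 0 and an SD of 0.67 across genes, and 5173 of the 5601 genes lay above the floor on both days. The split between higher and lower depended on filter and scaling. Among genes above the floor on all 6 arrays, 20 were at least 4-fold higher and 30 lower. Setting the arrays equal on the hybridisation controls moved the median of all genes to -0.21 and gave 211 genes with a signal at least 2-fold higher, against 489 lower, so that the higher ones made up 30.1% of them in place of 50.9%.

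**Figure D1:**
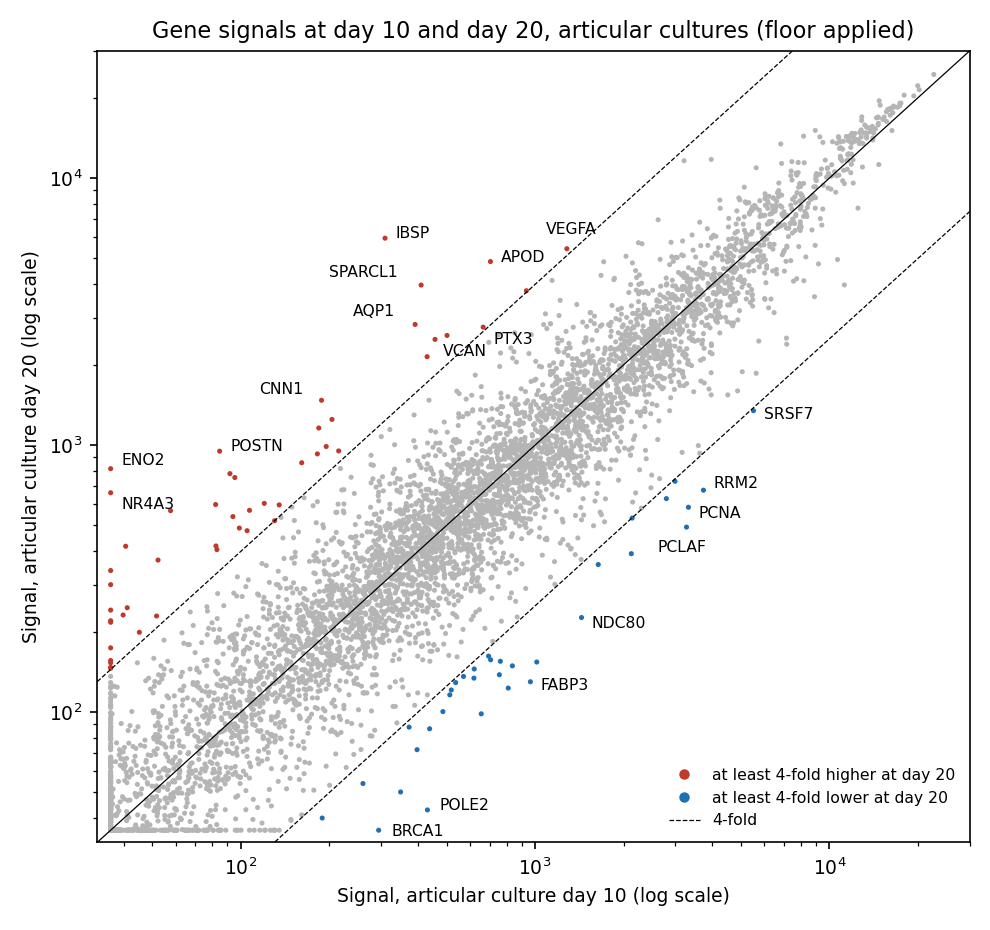
Signal of each of the 5601 genes in articular cultures at day 10 (x axis) and day 20 (y axis), both on log scales in the arrays' signal units, with signals under 36.1 raised to it. The solid line marks equal signals and the dashed lines 4-fold; 49 genes in red lie above the upper and 34 in blue below the lower dashed line.

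Different probe sets of a gene gave some measure of technical spread on this pair of arrays. For 1214 genes with a pair of probe sets above the floor on both days, the ratios of the pair differed by a median of 0.28 on the log2 scale, and 5% of the pairs differed by more than 1.15. Of 116 genes at least 2-fold apart with such an additional probe set, 101 had the same direction on it and 46 were at least 2-fold apart on it as well. Of 10 genes at least 4-fold apart, 8 kept the direction and 7 were at least 2-fold apart on the other probe set. The exceptions in direction were GFAP, a filament protein of glial cells, at 2.14 and -0.17, and MRPS12, a mitochondrial ribosomal protein, at -2.07 and 0.39, both named after their values were seen. Below, ratios on further probe sets are given for most of the named genes that had one above the floor on at least 1 of the days. Probe sets under the floor on both days, such as another for each of NR4A3, POSTN, SPARCL1 and ETV5, have no ratio.

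Most measured genes of DNA replication and cell division were lower at day 20. Of 15 measured genes of DNA replication 13 were at least 2-fold lower (86.7%, against 5.57% of all genes) and none higher, with a median log2 ratio of -1.71. Of 22 measured mitosis genes 19 were at least 2-fold lower (86.4%) and none higher, with a median of -1.61. POLE2, a subunit of the leading strand polymerase, had a signal of 430.5 at day 10 and 43.0 at day 20, and of 63.7 in native articular cartilage, with ratios of -3.32 and -2.94 on its 2 probe sets. It was 10.0-fold lower at day 20, a log2 ratio of -3.32, with -2.94 on its other probe set, and none of the 5601 genes had a lower ratio. PCNA, the sliding clamp of the replication fork, went from 394 in native tissue to 3319 at day 10 and 585 at day 20, a ratio of -2.51. RRM2, the regulated subunit of the enzyme that makes deoxynucleotides, followed the same course at 838, 3734 and 678. Each of these genes was high at day 10 alone among the articular arrays, and at day 20 POLE2 and RRM2 lay below native tissue and PCNA above it. MCM3, part of the replicative helicase, was at 619.6 and 134, a ratio of -2.20.

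Among the mitosis genes NDC80, which ties kinetochores to microtubules, was at 1438 at day 10 and 226 at day 20, 6.36-fold lower. NUF2, its partner in the same complex, was at 762 and 155, a ratio of -2.29. AURKB, the kinase that corrects kinetochore attachment, was at 621 and 145, a ratio of -2.10, and TOP2A, which untangles replicated chromosomes, at 3626 and 932, a ratio of -1.96. DLGAP5, a spindle protein, had ratios of -2.15 and -3.40 on its 2 probe sets. The same course was seen outside the lists. PCLAF, a PCNA-binding protein, was at 3270 and 493, ASF1B, a histone chaperone of replicating chromatin, at 349 and 50.2, and LMNB1, a nuclear lamin, at 1013 and 154. BRCA1, which repairs broken DNA by recombination, was at 294 at day 10 and at 32.0, under the floor, at day 20, so at least 8.14-fold lower. MELK, a mitotic kinase, was at 2123 and 392, and SPAG5, a spindle protein, at 756 and 138.

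Some genes that restrain the cell cycle had higher signals over the same interval. Of 12 measured genes of the growth arrest list 4 were at least 2-fold higher (33.3%, against 5.78% of all genes) and none lower. A positive ratio was found for 10, with a list median of 0.76 and a range from -0.30 to 1.86. CCND2, a D-type cyclin that drives the cycle rather than restrains it, was among the 10. It was at 852 and 1404, a ratio of 0.72, and is named after its values were seen. TXNIP, which binds thioredoxin and limits glucose uptake, was at 3209 at day 10 and 11617 at day 20, a ratio of 1.86. CDKN1A, which encodes the cyclin-dependent kinase inhibitor p21, was at 2618 and 6984, and at 2552 in native cartilage. BTG2, an antiproliferative protein, was at 68.9 and 211, and CCNG2, a cyclin linked to arrest, at 371 and 876. Day 20 was the highest of the 3 articular arrays for TXNIP, CDKN1A and CCNG2, whereas BTG2 had 265 in native tissue.

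**Figure D2:**
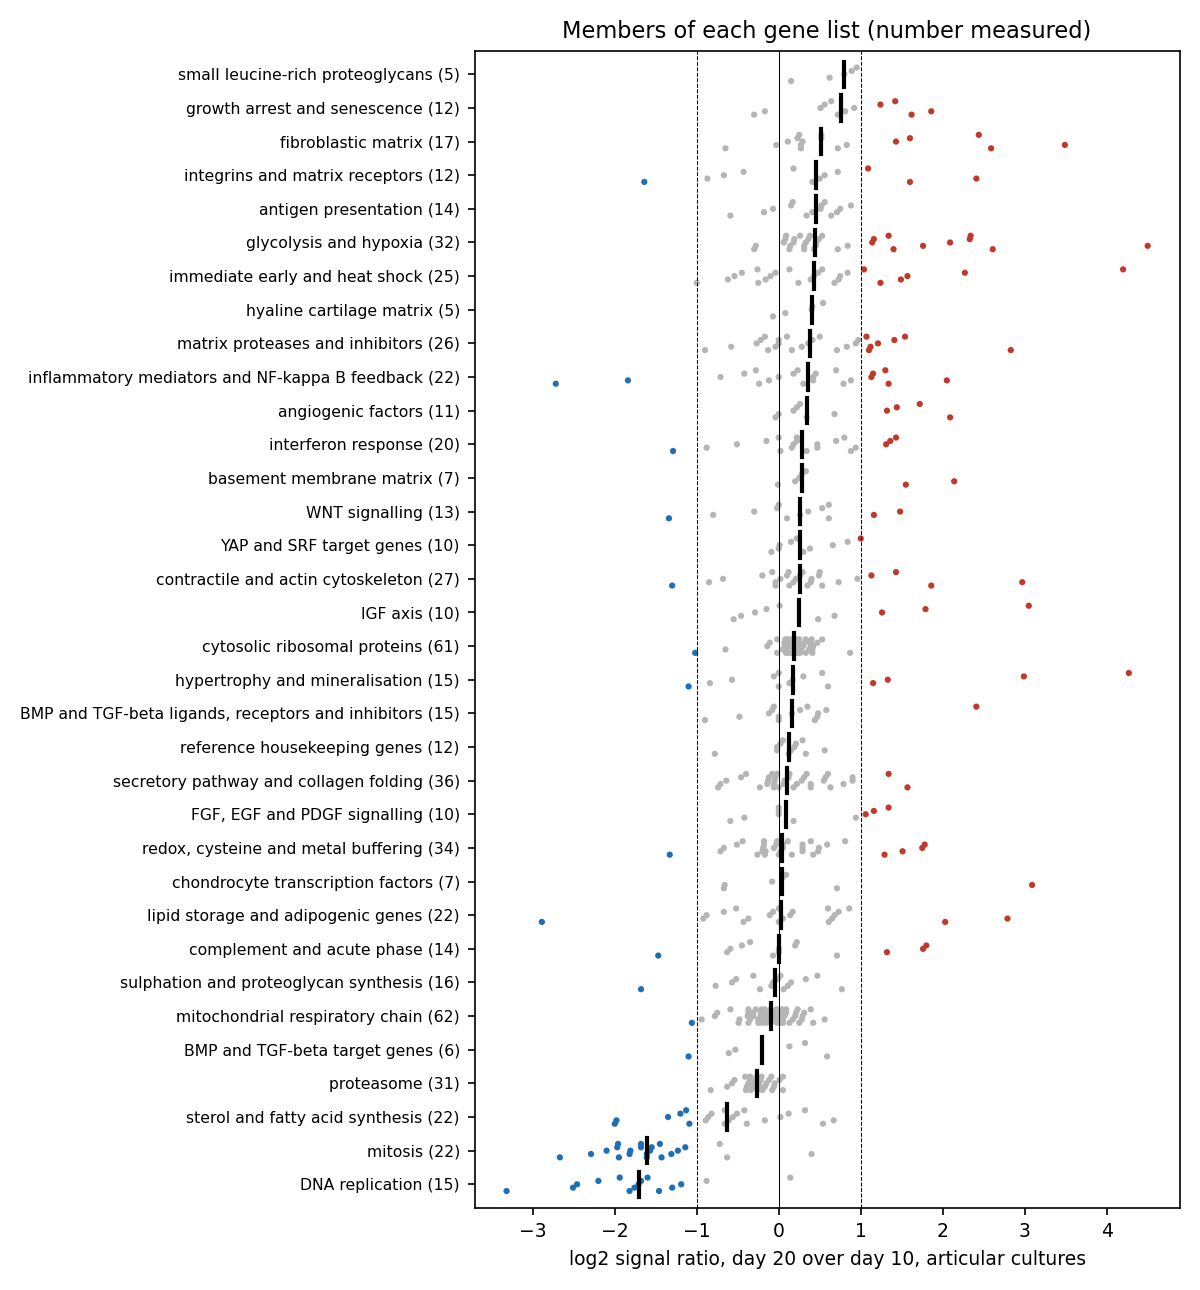
Log2 signal ratio, day 20 over day 10, of each measured member (points) of 34 gene lists in articular cultures, with the list's median as a black bar and the number measured in brackets. Red points are at least 2-fold higher and blue points at least 2-fold lower at day 20 (dashed lines); DNA replication and mitosis lie furthest to the left, with medians of -1.71 and -1.61.

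Part of the genes that low oxygen is known to induce had higher signals at day 20; the labels give 5% oxygen for all cultures. Of 32 measured glycolysis and hypoxia genes 10 were at least 2-fold higher (31.2%, against 5.78% of all genes) and none was 2-fold lower. A positive ratio was found for 30, and the list median was 0.44. Other well-known targets of hypoxia were near level, such as LDHA, PGK1 and the glucose transporter SLC2A1, at ratios of 0.13, 0.19 and -0.30, named after their values were seen. ENO2, an isoform of the glycolytic enzyme enolase, had signals of 23.6 in native cartilage, 6.76 at day 10 and 816 at day 20. At a log2 ratio of at least 4.50, or at least 22.6-fold, it had the highest ratio of all genes. CA9, a carbonic anhydrase of hypoxic cells, was at 195 and 988, a ratio of 2.34, with 2.12 on another probe set. Its remaining probe set was near the floor, at 37 and then 8.24, under it, a ratio of -0.03 or less. ANKRD37, a target of hypoxia-inducible factor, was at 204 and 1248, a ratio of 2.61. MXI1, which opposes MYC at its binding sites, was at 120.1 and 605, a ratio of 2.33. VEGFA, the main vascular growth factor, was at 5032 in native cartilage, 1282 at day 10 and 5440 at day 20, a ratio of 2.09, and its other probe sets above the floor gave 1.77 and 0.19. For VEGFA the day 10 array was therefore the low one, while for CA9, ANKRD37 and MXI1 the day 20 array stood above native tissue as well.

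Of 11 measured angiogenic factors 4 were at least 2-fold higher (36.4%, against 5.78% of all genes), VEGFA among them, and none lower. ANGPT2, which loosens vessel walls, was at 62.0 in native tissue, 277 at day 10 and 916 at day 20. ANGPT1, its counterpart at the same receptor, was at 79.8 and 216, a ratio of 1.44, with 0.20 on the other probe set. SERPINF1, a secreted inhibitor of vessel growth, was at 1096 and 2732, a ratio of 1.32.

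Part of the fibrous matrix genes had higher signals at day 20. Of 17 measured fibroblastic matrix genes 5 were at least 2-fold higher (29.4%, against 5.78% of all genes) and none was 2-fold lower. The median was 0.52. POSTN, which encodes periostin of fibrous tissue and periosteum, was at 22.1 in native cartilage, 84.7 at day 10 and 949 at day 20, an 11.2-fold difference. VCAN, a large proteoglycan of loose connective tissue, was at 92.0, 457 and 2489, a ratio of 2.44. Of its other 4 probe sets 1 gave 2.12 and 3 were under the floor on both days. COL3A1, the type III collagen of soft connective tissue, was at 58.0, 157 and 473, a ratio of 1.60. COL5A3, a minor fibril collagen, was under the floor at 34.6 at day 10 and at 217 at day 20, at least 6.01-fold higher. For POSTN, VCAN and COL3A1 the order of signals was native, day 10, day 20. COL1A2, a chain of type I collagen, was at 146, 585 and 838, a ratio of 0.52 between the culture days, and at -0.12 on the other probe set.

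Of 7 measured basement membrane genes 2 were at least 2-fold higher (28.6%, against 5.78% of all genes). COL4A2, a chain of type IV collagen, was at 215 and 951, a ratio of 2.14, and COL8A1, a short-chain collagen, at 626 and 1829, a ratio of 1.55, with 0.84 on its other probe set above the floor. None of the 5 small leucine-rich proteoglycans was 2-fold apart, although all 5 had positive ratios, with a median of 0.80. ASPN, which encodes asporin, was at 45.1 in native tissue, 5643 at day 10 and 10935 at day 20, and LUM, which encodes lumican, at 15.5, 1498 and 2784. Both were therefore far above native cartilage by day 10. Of 12 integrins and matrix receptors 3 were at least 2-fold higher (25%, against 5.78% of all genes) and 1 lower (8.33%, against 5.57%). ITGA8, an integrin chain of contractile mesenchymal cells, was at 161 and 859, with ratios of 2.41, 2.46 and 2.22 on its 3 probe sets. NCAM1, an adhesion molecule of condensing mesenchyme, was at 509 and 163, a ratio of -1.64, with -0.90 to -0.41 on 3 other probe sets.

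Of 27 measured contractile and cytoskeletal genes 4 had at least a 2-fold higher signal (14.8%, against 5.78% of all genes). A 2-fold lower one was found for 1 (3.7%, against 5.57%), and the median was 0.26. CNN1, the calponin of smooth muscle and myofibroblasts, was at 37.8 in native cartilage, 188 at day 10 and 1472 at day 20, 7.81-fold higher. PDLIM1, which links proteins to actin fibres, was at 31.3, 1142 and 4139, a ratio of 1.86. MYL9, a myosin light chain, was at 198, 387 and 1039, and LIMS2, an adapter of integrin adhesions that lies outside the list, was at 40.6 and 418, a ratio of 3.36. TAGLN2, an actin-binding relative of transgelin, went the other way at 1622 and 659.6, a ratio of -1.30. Some pericyte and smooth muscle markers were higher at day 20 too, and their part in the result was not tested. DES, a marker of the same list, was near level at 247 and 291. KCNJ8, a potassium channel subunit of pericytes, was at 82.1 and 599, with ratios of 2.87 and 3.17 on the 2 of its 3 probe sets above the floor. PDGFRB, the PDGF receptor of mural cells and fibroblasts, was at 839 and 2117, a ratio of 1.34, with 0.39 on its other probe set. RGS5, which marks pericytes, was at 619 at day 10 but at 34.4 at day 20, and under the floor on the other 4 arrays, so that it did not enter the 5601 genes; it is named after its values were seen.

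**Figure D3:**
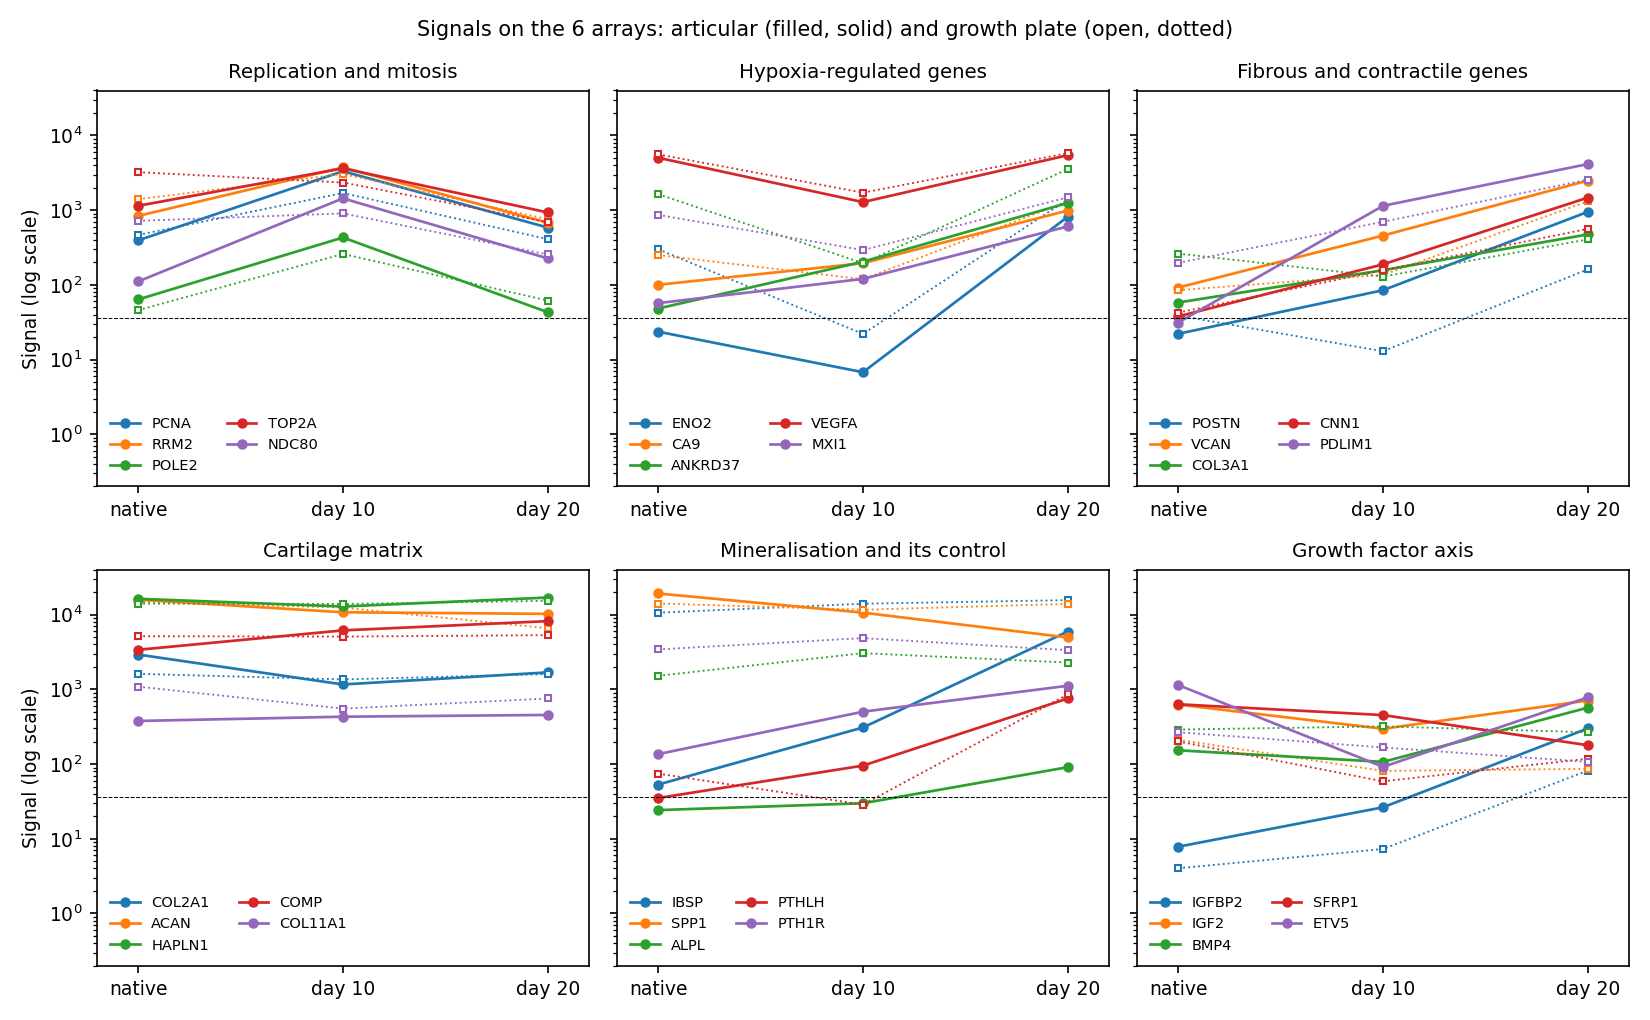
Signals (log scale, the arrays' signal units) of 30 genes in native tissue and at day 10 and day 20 of culture, in articular samples (filled circles, solid lines) and growth plate samples (open squares, dotted lines), 1 array per point; the dashed line is the floor of 36.1. Replication and mitosis genes are highest at day 10 of the articular arrays, the plotted hypoxia-regulated and fibrous genes are higher at day 20 than at day 10, and the cartilage matrix genes are nearly level between the articular culture days.

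The hyaline cartilage matrix genes differed little between the days. None of the 5 measured was 2-fold apart, and their ratios lay between -0.07 and 0.54, with a median of 0.40. COL2A1, the type II collagen of cartilage, had a signal of 2929 in native tissue, 1164 at day 10 and 1689 at day 20, and its ratio of 0.54 was below the 2-fold rule. COMP, which helps collagen fibrils assemble, was at 3390, 6170 and 8205, a ratio of 0.41, with -0.06 on the other probe set. COL11A1, which limits fibril width, was at 378, 431 and 455, with ratios of 0.08 and, ending under the floor, of -0.31 or less on its 2 probe sets. Among 7 transcription factors of chondrocytes only ETV5, an ETS factor induced by FGF signalling, was 2-fold apart (14.3% higher, against 5.78% of all genes). Its signals were 1144 in native cartilage, 91.8 at day 10 and 782 at day 20, an 8.52-fold difference between the culture days, so that day 20 lay close to native tissue and day 10 far below. SOX9 had a ratio of -0.08.

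Within the 15 measured genes of hypertrophy and mineralisation 4 were at least 2-fold higher (26.7%, against 5.78% of all genes). The 1 that was 2-fold lower made 6.67%, near the 5.57% of all genes, and the list median was 0.17. IBSP, which encodes the mineral-binding bone sialoprotein, was at 53.2 in native articular cartilage, 309 at day 10 and 5958 at day 20, 19.3-fold higher at day 20 than at day 10. In growth plate samples IBSP was at 10642, 14034 and 15675, high on every array. PTHLH, the hormone-related protein that delays hypertrophy, was at 35.1, 95.4 and 756 in articular samples, a ratio of 2.99, and its receptor PTH1R was at 136, 503 and 1118, a ratio of 1.15. ALPL, the alkaline phosphatase of mineralising cells, was under the floor at 29.9 at day 10 and at 90.9 at day 20, at least 2.52-fold higher. SPP1, which encodes osteopontin, went down in order from 19241 in native tissue to 10658 and 4955, a ratio of -1.10. COL10A1, the collagen of hypertrophic cartilage, was under the floor on both culture days at 26.4 and 30.8. The same held for MMP13, a collagenase of hypertrophic cartilage, at 27.0 and 30.5, while IHH, the signal of prehypertrophic cells, was at 49.9 and 48.0. The 2-fold higher members therefore did not include these 3 genes of hypertrophy.

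Signalling genes were taken pathway by pathway. Of 10 measured genes of the IGF axis 3 were at least 2-fold higher (30%, against 5.78% of all genes) and none lower. The median was 0.25. IGFBP2, which binds IGFs outside the cell, was at 26.4, under the floor, and then at 300.1, at least 8.31-fold higher. IGF2, a fetal growth factor, was at 627 in native tissue, 297 at day 10 and 710.2 at day 20, a ratio of 1.26 on the probe set used. It had 13 probe sets, and of the other 7 above the floor 1 was at least 2-fold higher, 6 had positive ratios, and the range was -0.92 to 1.83, with 0.36 for the mean of all its probe sets. IGF1 was at 9.65 and 125, a ratio of at least 1.79, but 0.08 on the other probe set above the floor.

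Among 15 ligands, receptors and inhibitors of the BMP and TGF-beta pathways only BMP4, a ligand that promotes chondrocyte maturation, was 2-fold apart, at 107 and 569.7, a ratio of 2.41. The share of these ligands, receptors and inhibitors called higher, 6.67%, was close to the 5.78% of all genes. Of 6 measured target genes of these pathways 1 was at least 2-fold lower (16.7%, against 5.57% of all genes) and none was 2-fold higher. It was ID1, a direct target of BMP signalling, at 1882 and 878, a ratio of -1.10. Of 13 WNT pathway genes 2 had at least a 2-fold higher signal (15.4%, against 5.78% of all genes) and 1 a lower one (7.69%, against 5.57%). DKK3, a secreted relative of WNT inhibitors, was at 77.0 in native tissue, 827 at day 10 and 2311 at day 20. TCF7L2, a nuclear effector of the pathway, was at 211 and 471, with ratios of 1.16 and 0.52 on its 2 probe sets. SFRP1, a secreted decoy for WNT proteins, was at 632 in native tissue, 453 at day 10 and 179 at day 20, with ratios of -1.34 and -1.64 on its 2 probe sets. DKK2, another of the 13, disagreed between its probe sets. Its ratio was -0.80 on the one used and at least 3.62 on the other, from 26, under the floor, to 445. Of 10 genes of FGF, EGF and PDGF signalling 3 were at least 2-fold higher (30%, against 5.78% of all genes) and none was lower. DUSP6, a feedback phosphatase of the ERK pathway, was at 91.8 and 191. The others were PDGFRB, with 0.39 on its other probe set, and FGF2, at 33.1, under the floor, and 80.8. The other probe set of FGF2 went from 46 to 23.7, under the floor, a ratio of -0.35 or less. Of 10 target genes of YAP and SRF 1 was at least 2-fold higher, LATS2, a kinase that restrains YAP, at 1231 and 2470, and its other probe set gave a ratio of 0.59. The share of 10% is near the 5.78% of all genes.

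Immediate early and heat shock genes numbered 25, of which 6 had at least a 2-fold higher signal (24%, against 5.78% of all genes). None had a 2-fold lower one, and the median was 0.43. NR4A3, an orphan nuclear receptor that cells induce quickly on stimulation, was at 15.3 in native tissue, 35.3 at day 10 and 663 at day 20, at least 18.3-fold higher at day 20 than at day 10. NR4A2, of the same family, was at 956, 32.4 and 174, at least 4.82-fold higher at day 20, yet below native tissue. FOSL2, a partner of JUN proteins, was at 214 and 601, and HSPA6, a heat-induced chaperone, at 106 and 313.

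Immune genes were taken list by list. Of 22 measured inflammatory mediators 5 had at least a 2-fold higher signal (22.7%, against 5.78% of all genes). A 2-fold lower one was found for 2 (9.09%, against 5.57%), and the median was 0.36. PTX3, a secreted pattern recognition protein, was at 52.1 in native cartilage, 666 at day 10 and 2766 at day 20, with ratios of 2.05 and 1.05 on its 2 probe sets. PTGS1, the constitutive cyclooxygenase, was at 1578, 810.4 and 123, 6.59-fold lower at day 20 than at day 10. SAA2, an acute phase protein, was at 2475 and 692, a ratio of -1.84, but 0.27 on the other probe set. CXCL8, a neutrophil chemokine, was at 3084 in native tissue, 34.8 at day 10 and 91.2 at day 20, so that both culture days were far below native tissue.

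Of 14 complement and acute phase genes 3 were 2-fold higher or more (21.4%, against 5.78% of all genes). The 1 that was 2-fold lower made 7.14%, near the 5.57% of all genes. The proteases C1S and C1R, which start the classical pathway, were at 696 and 2425 and at 392 and 982, and their inhibitor SERPING1 at 182 and 614. CD55, which protects cells from complement, was at 109.9 and 39.6, the latter close to the floor, a ratio of -1.47. Of 20 interferon response genes 3 had at least a 2-fold higher signal (15%) and 1 a lower one (5%, against 5.57% of all genes). MX1, an antiviral GTPase, was at 191 and 491, and IRF9, a subunit of the interferon-activated transcription factor, at 83.1 and 224, whereas GBP1, a guanylate-binding protein, was at 125 and 51.3, with ratios of -1.29 and -0.39 on the probe sets above the floor. None of the 14 antigen presentation genes measured was 2-fold apart, and 11 had positive ratios, with a median of 0.46.

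Of 26 measured matrix proteases and inhibitors 7 were at least 2-fold higher (26.9%, against 5.78% of all genes) and none was 2-fold lower. The median was 0.38. ADAMTS1, a protease that cleaves aggrecan and versican, was at 54.9 in native tissue, 52.3 at day 10 and 371 at day 20, with ratios of 2.83 and 2.41 on its 2 probe sets. CTSH and CTSD, proteases of the lysosome, were at 763 and 2212 and at 953 and 2203. SPINT2, an inhibitor of serine proteases, was at 281 and 748. Day 20 was the highest articular array for each of these genes.

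Some genes of sterol and fatty acid synthesis had lower signals at day 20. Of 22 measured 6 were at least 2-fold lower (27.3%, against 5.57% of all genes) and none higher, and 17 had negative and 5 positive ratios, with a median of -0.63 and a highest value of 0.67. FDPS, which makes farnesyl diphosphate for sterols and protein prenylation, was at 445 in native tissue, 2137 at day 10 and 533 at day 20. ACAT2, an acetyl-CoA acetyltransferase of the same route, was at 528, 2297 and 581, with ratios of -1.98 and -2.04 on its 2 probe sets. HMGCS1, which makes the precursor of mevalonate, was at 501, 2110 and 918. These 3 genes were high on the day 10 array, and at day 20 FDPS and ACAT2 lay close to native tissue.

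The 22 lipid storage and adipogenic genes held 2 that were at least 2-fold higher and 1 that was lower, shares of 9.09% and 4.55%. These are near the 5.78% and 5.57% of all genes. FABP3, a fatty acid carrier, was at 115, 964 and 129.9, a ratio of -2.89, and APOD, a lipocalin that carries lipids, was at 875, 705 and 4870, a ratio of 2.79. APOE, a lipoprotein component, was at 29.7 and 147, at least 4.08-fold higher, while its other probe set gave -0.56. Of 34 redox genes 4 were at least 2-fold higher (11.8%, against 5.78% of all genes) and 1 lower (2.94%, against 5.57%). GCLC, the catalytic subunit of the first enzyme of glutathione synthesis, was at 152 and 522, a ratio of 1.78, with 1.02 on each of 2 other probe sets. SELENOP, a selenium transport protein, was at 176 and 593, and MT-2B, a metallothionein, was at 12162 in native tissue, 862 at day 10 and 343 at day 20. Of 36 secretory pathway genes 2 were at least 2-fold higher, 5.56% and so close to the share of all genes. They were ASNS, the asparagine synthetase of the amino acid response, at 14199, 3967 and 11752, and DDIT3, a transcription factor of the stress response, at 149 and 377. Of 16 genes of sulphation and proteoglycan synthesis 1 was at least 2-fold lower (6.25%, near the 5.57% of all genes) and none higher. It was SULF2, which trims heparan sulphate, at 371 and 116, with ratios of -1.68 and -0.96 on its 2 probe sets.

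The large families of cell maintenance were near level. Of 61 cytosolic ribosomal proteins 55 had positive ratios, with a median of 0.18 that became -0.05 when arrays were set equal on the hybridisation controls. Of 31 proteasome genes 28 had negative ratios, with a median of -0.26, and of 62 respiratory chain genes 38 had, with a median of -0.09. No proteasome gene and no member of 12 reference housekeeping genes was 2-fold apart, and the median of the latter went from 0.13 to -0.10 under that scaling.

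Several of the most different genes lay outside these lists. SPARCL1, a matricellular relative of osteonectin, was at 64.7 in native tissue, 409.8 at day 10 and 3976 at day 20, a ratio of 3.28. SCARA5, a scavenger receptor that takes up ferritin, was at 57.7 and 568, a ratio of 3.30, and S1PR1, a receptor for sphingosine 1-phosphate, was at 35.6, under the floor, and 339, a ratio of at least 3.23, with 2.41 and 1.42 on its other probe sets. AQP1, a water channel, was at 486 in native tissue, 391 at day 10 and 2831 at day 20, a ratio of 2.86, with 0.27 on the other probe set. TMEM158, a membrane protein found in cells with active RAS, was at 3.84, 502 and 2575, and S100A1, a calcium-binding protein, at 568, 934 and 3786. Among the lower ones SRSF7, a splicing factor, was at 1201, 5521 and 1346, SRSF1, of the same family, at 830.5, 2649 and 749, with ratios of -1.82, -2.51 and -1.21 on its 3 probe sets, and RNASEH2B, a subunit of an enzyme that removes ribonucleotides from DNA, at 1252, 2988 and 732. All 3 of these were highest at day 10.

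The growth plate cultures, which share no array with the articular ones, offered the same interval in another cartilage. There 370 genes were at least 2-fold higher at day 20 (6.61%) and 396 at least 2-fold lower (7.07%). Over the 5601 genes, none of them an independent replicate, Pearson's correlation between the ratios of the 2 tissues was 0.60 and Spearman's was 0.57. Without the replication and mitosis lists Pearson's was 0.59, but these hold only 37 of the genes, and other genes of division stayed in. Leaving them out therefore cannot show how far the correlation rests on cell division. Of the 34 genes at least 4-fold lower in articular cultures 29 (85.3%) had at least a 2-fold lower signal in growth plate cultures too. Of the 49 at least 4-fold higher 31 (63.3%) were at least 2-fold higher there, 17 lay between the limits, and 1 was at least 2-fold lower. The 138 genes at least 2-fold higher in both made up 42.6% of the articular and 37.3% of the growth plate genes, and the 161 at least 2-fold lower in both 51.6% and 40.7%. The median ratios of replication and mitosis genes were -1.35 and -1.20 in growth plate cultures.

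Other genes had ratios that differed between the tissues by value, with no replicate to test it. SPARCL1 had ratios of 3.28 in articular and 0.64 in growth plate cultures, and APOD of 2.79 and 0.38. IBSP had 4.27 and 0.16, BMP4 had 2.41 and -0.26, and PTGS1 had -2.72 and -0.05. In growth plate cultures SPARCL1 was at 2978 and 4635, IBSP at 14034 and 15675 and PTGS1 at 76.3 and 73.6. SPARCL1, IBSP and PTGS1 therefore differed between the tissues already at day 10. On that day BMP4 was at 319.7 in growth plate and 107 in articular cultures, and APOD was closer, at 992 and 705. The small leucine-rich proteoglycans had the larger median in growth plate cultures, at 2.47 against 0.80 in articular ones. The same held for the fibroblastic matrix list, at 1.01 and 0.52. LUM was at 779.6 and 10749 in growth plate cultures against 1498 and 2784 in articular ones. At least 2-fold apart in opposite directions were 11 genes, 8 of them higher and 3 lower at day 20 in articular cultures. ADAMTS1 had ratios of 2.83 in articular and -1.58 in growth plate cultures, where its signals were 944 and 315. SFRP1 had -1.34 and 1.01, and AQP3, a channel for water and glycerol, had -2.14 and 1.08.

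**Figure D4:**
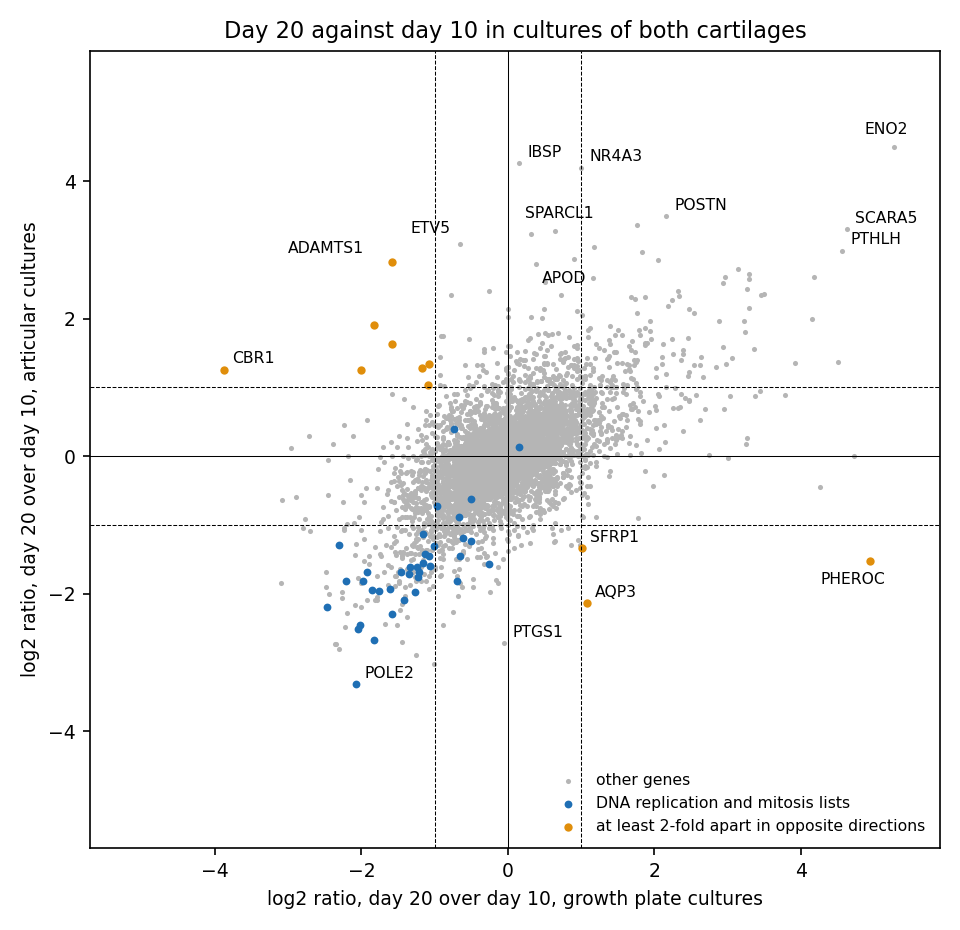
Log2 signal ratio, day 20 over day 10, of each of the 5601 genes in growth plate cultures (x axis) and articular cultures (y axis); dashed lines mark 2-fold. The replication and mitosis lists (blue) lie mostly at the lower left, and the 11 genes in orange were at least 2-fold apart in opposite directions.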

How the data were processed

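The study holds 6 Affymetrix arrays of porcine total RNA, 1 per condition. The authors deposited 1 signal intensity for each probe set on a linear scale. Per the submitters' processing notes they used GCOS 1.4; its scaling target and its detection calls are not given in the sources used here. The values were not normalized again. Of 24123 probe sets 124 controls were left out. The platform's annotation gave 10069 of the other 23999 a single symbol, and 9961 of these matched a RefSeq gene. The 13732 without a symbol and the 198 with more than 1 were not used. The floor of 36.1 was the 40th percentile, and the ratio is log2 of the floored day 20 over day 10 signal. A list was described by its counts and median, with no test. The script was tested on simulated data. Python 3.11.15, numpy 2.4.6, pandas 2.3.3, scipy 1.17.1 and matplotlib 3.10.9 were used.

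Genes were named by rule: the 15 with the largest ratio each way; the 10 each way among the brightest 25% of genes above the floor on both days; up to 4 members of each of 34 gene and 9 marker lists and every member at least 4-fold apart; 13 fixed cartilage genes; and the 10 largest differences in opposite directions between tissues. Most genes outside the rule are said to have been named after their values were seen. Not so marked are CDH5, KDR, TEK, TIE1 and VWF, endothelial list members that the filter left out, and FGL2, also left out by it. The comparison, the members and the lists were chosen with earlier results of these data known. Alternatives concerned normalization, floor, filter, probe set and size rule. Promoter sequences were not used here, and no coordinates are given, since the files name no genome build. With 1 array per condition, the number of arrays limits the precision.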

Additional observations from a re-analysis of the deposited data

Results flagged for a closer look

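The 10 results below concern genes whose day 20 over day 10 ratio was at least 2-fold in opposite directions in the articular and the growth plate cultures, each tissue being 1 pair of arrays. The difference between tissues was not tested. The values are articular minus growth plate log2 ratios.

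PHEROC, a symbol from the platform annotation, had -6.47 or less, with signals of 256 and 89.3 at day 10 and day 20 in articular cultures and of 21.7, under the floor, and 1117 in growth plate cultures. CBR1, a carbonyl reductase, had at least 5.14, with 183 and 438 at the articular day 10 and day 20, and 532 and 27.0, under the floor, in the growth plate cultures. ADAMTS1, a matrix protease, had 4.41. ETNK2, an ethanolamine kinase, had at least 3.75, from 10.5, under the floor, to 136 in articular cultures and from 129 to 25, under the floor, in growth plate cultures.

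PAMR1, a secreted protein of muscle regeneration, had 3.26, and CIB2, a calcium-binding protein, had at least 3.21, its growth plate day 20 signal of 17.6 being under the floor. AQP3, a water and glycerol channel, had -3.22, and SFRP1, a WNT decoy, had -2.35. RIN3, an activator of RAB5, had 2.46, and NRSN1, a neuronal vesicle protein, had 2.41. For SFRP1 the articular direction was the same on its other probe set, at -1.64.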

How the results depend on the processing

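Replication, mitosis and sterol synthesis kept negative medians under all settings, at -1.94 to -1.46, -1.84 to -1.49 and -0.89 to -0.53, and fibroblastic matrix, glycolysis and hypoxia, and growth arrest kept positive ones, at 0.28 to 0.52, 0.21 to 0.46 and 0.53 to 0.81. Of the list medians under the alternatives 403 stayed close and 5 moved. Of the named genes' ratios 2068 stayed close, 67 moved and 2 reversed, both of APOE. It had -0.71 with a floor at the 25th percentile and -0.38 with a pseudocount. Under both settings the rule for the brightest probe set picked the other APOE probe set, at 53.3 and 32.5, which had -0.56 in the main setting. Counts followed the settings. The numbers at least 4-fold higher and lower were 77 and 53 with a floor at the 25th percentile, 25 and 22 at the 60th, 30 and 19 with a pseudocount and 10 and 2 by an 8-fold rule. At the 60th percentile 194 genes were at least 2-fold higher, and 20 genes were at least 4-fold higher with all 6 arrays above the floor. Counting each probe set by itself, 860 and 898 were at least 2-fold and 116 and 118 at least 4-fold higher and lower. The scaling to hybridisation controls, chosen after seeing the data, gave 211 and 489 at least 2-fold higher and lower, and 36 and 59 at least 4-fold. A filter on signals at least 4 times the floor was also added after seeing the data. No paired analysis was possible because each group holds 1 sample, and for the same reason no replicate could be left out. The promoter motif search was not run. Signal near the floor limits the low genes.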

Other observations

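The groups below were assembled after the values had been seen, so their counts describe these arrays only. For comparison, 5.78% of all genes were at least 2-fold higher at day 20 and 5.57% at least 2-fold lower. Splicing factors of the SR family and their kinases split in direction. Of 17 measured 8 were at least 2-fold lower at day 20 and 3 were 2-fold higher or more. The median log2 ratio was -0.67 in articular and -0.41 in growth plate cultures. SRSF2 went from 11251 to 3981, SRSF3 from 7163 to 2387 and TRA2B, a splicing activator, from 7147 to 2516, the last with a ratio of -1.51, and of -1.72, -1.45 and -0.28 on other probe sets above the floor. SRSF6 had -1.81 on the probe set used, and its other 5 ranged from -2.27 to 0.55, of which 3 were at least 2-fold lower. The kinases CLK1 and CLK4, which phosphorylate SR proteins, were at 388 and 1297 and at 171 and 367, and LUC7L3, an SR-related factor, was at 82.3 and 419. Of 22 DNA repair and chromatin assembly genes 13 were at least 2-fold lower and none higher, with a median of -1.42, among them RAD51AP1, a recombination factor, at 1639 and 357, with ratios of -2.20, -2.40 and -0.52 on its 3 probe sets.

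Of 7 circadian clock genes 3 were 2-fold higher or more (against 5.78% of all genes), and the median was 0.75. DBP, a clock output factor, was at 164 and 635, CRY2, a repressor of the clock, at 67.3 and 237, and BHLHE40, another repressor, at 142 and 316, while ARNTL, the clock's activator, was at 154 and 109 with a ratio of -0.50. In growth plate cultures DBP and CRY2 had ratios of 1.94 each. Of 6 measured vitamin A genes 3 were at least 2-fold higher (against 5.78% of all genes), with a median of 0.95. CYP26A1, which breaks down retinoic acid, was at 130.2 and 521, CRABP2, which carries it to the nucleus, at 63.3 and 141, and RARRES2, a retinoid-responsive gene, at 1084 and 3103. The hour at which cells were taken is not given in the sources used here.

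Of the 1164 genes left out by the filter 1 was at least 4-fold higher at day 20 and 1 at least 4-fold lower. FGL2, a secreted fibrinogen-like protein, was at 31.9, under the floor, and 282, and RGS5 was at 619 and 34.4.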
